A study of Rattus norvegicus with 71 samples.

Results

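The insulin-like growth factor genes and the oncofetal RNA-binding protein genes described here are 9 genes taken by symbol from the count table, Igf2bp1, Igf2bp2, Igf2bp3, Lin28b, Hmga2, Igf2, Igf1, Igf1r and Igf2r, out of 17494 genes in the table. The list was chosen on knowledge of earlier results from these same animals, and Igf2bp3 is among the genes for which the study shows a difference between exposed and control offspring, so its exposure contrasts are given below as values only and counts of members that passed in them leave it out. Of the 9 genes, 8 had a row in the table, 7 had at least 1 CPM (counts scaled to library size) in at least 8 animals and were tested, Hmga2 lay below this filter, and Lin28b was not analysed here. RNA came from a coronal slice of the rat brain at postnatal day 2 (PND2) that held the hippocampal formation and neighbouring cortex and subcortical tissue, 1 library per animal, from 71 Sprague-Dawley offspring of 27 litters. Dams of the 24 control animals (7 litters) received Freund's adjuvant with saline. Dams of the 47 MARA-AB exposed animals (20 litters; MARA-AB, the autoantibodies of maternal autoantibody-related autism) received this adjuvant mixed with peptides, and each pattern is named by its antigens. The patterns were CRMP1+CRMP2 in 8 animals of 4 litters, STIP1+NSE in 8 animals of 4 litters, CRMP1+GDA in 6 animals of 3 litters and LDHA/B+CRMP1+STIP1 in 25 animals of 9 litters. Of the controls 12 were in batch 1 and 12 in batch 2. LDHA/B+CRMP1+STIP1 had 16 animals in batch 1 and 9 in batch 2, and the remaining patterns were in batch 2 alone. Libraries held 24880182 to 36234952 counts. Animals are the replicates in the tests below, although littermates share a dam, so the p-values also rest on the spread between littermates.

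IGF2BP1, IGF2BP2 and IGF2BP3 are RNA-binding proteins that hold messenger RNAs in the cytoplasm and govern their stability, transport and translation, with Igf2 and Actb transcripts among those they were first known to bind. IGF2BP1 and IGF2BP3 are abundant in the fetus and decline after birth, as do LIN28B, which blocks maturation of the let-7 microRNAs, and HMGA2, a chromatin protein of dividing progenitors, both of which let-7 in turn represses. IGF1 and IGF2 are secreted growth factors that act through the tyrosine kinase receptor IGF1R, while IGF2R, the mannose 6-phosphate receptor, carries IGF2 to the lysosome for degradation. In the newborn rodent brain Igf2 is known as a product of the meninges, the choroid plexus and blood vessels, and Igf1 of scattered neurons and glia.

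The sequences upstream of the members' starts are shown here since, as described below, all pairs among Igf2bp1, Igf2bp2, Igf2bp3, Igf1r and Igf2r correlated over the litters of batch 2, though none passed in batch 1, while no pair with Igf2 or Igf1 passed in either. They are the 250 bases before the RefSeq start in the rat build GRCr8, read 5′ to 3′ on the gene's strand, and capitals mark the GC box GGGCGG on either strand (GGGCGG or CCGCCC). RefSeq entries matched 8 of the 9 members, all but Igf2bp1, with 9 starts in all.
Igf2bp3, chr4:79525731-79525980, minus strand: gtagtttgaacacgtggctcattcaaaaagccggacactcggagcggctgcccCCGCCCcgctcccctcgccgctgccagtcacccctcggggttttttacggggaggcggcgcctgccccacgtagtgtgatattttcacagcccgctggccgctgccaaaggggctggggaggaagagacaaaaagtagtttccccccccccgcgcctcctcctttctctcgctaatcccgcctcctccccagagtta
Igf2bp2, chr11:92378658-92378907, plus strand: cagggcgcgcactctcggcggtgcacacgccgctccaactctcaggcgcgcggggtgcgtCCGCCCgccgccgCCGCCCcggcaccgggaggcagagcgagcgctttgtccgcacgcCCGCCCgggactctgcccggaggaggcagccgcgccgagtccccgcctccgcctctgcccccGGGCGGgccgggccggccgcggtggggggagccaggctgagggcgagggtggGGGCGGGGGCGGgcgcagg
Igf1r, chr1:130959747-130959996, plus strand: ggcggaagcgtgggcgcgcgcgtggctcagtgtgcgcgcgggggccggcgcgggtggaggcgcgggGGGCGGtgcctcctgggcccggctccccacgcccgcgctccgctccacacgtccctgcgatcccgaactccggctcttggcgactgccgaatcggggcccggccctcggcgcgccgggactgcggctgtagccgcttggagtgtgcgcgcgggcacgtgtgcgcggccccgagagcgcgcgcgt
Igf2r, chr1:50526628-50526877, plus strand: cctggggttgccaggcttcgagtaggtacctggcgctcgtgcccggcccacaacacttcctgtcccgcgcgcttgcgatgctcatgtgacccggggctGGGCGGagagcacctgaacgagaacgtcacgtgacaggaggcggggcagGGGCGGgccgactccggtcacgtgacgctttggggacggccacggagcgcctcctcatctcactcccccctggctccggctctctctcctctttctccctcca
Igf2, chr1:207250476-207250725, minus strand: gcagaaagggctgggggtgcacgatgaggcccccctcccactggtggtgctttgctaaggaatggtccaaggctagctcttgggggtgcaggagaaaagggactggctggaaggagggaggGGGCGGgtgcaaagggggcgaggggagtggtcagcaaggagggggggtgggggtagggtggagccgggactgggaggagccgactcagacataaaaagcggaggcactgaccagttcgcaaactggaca
Igf1, chr7:24172282-24172531, plus strand: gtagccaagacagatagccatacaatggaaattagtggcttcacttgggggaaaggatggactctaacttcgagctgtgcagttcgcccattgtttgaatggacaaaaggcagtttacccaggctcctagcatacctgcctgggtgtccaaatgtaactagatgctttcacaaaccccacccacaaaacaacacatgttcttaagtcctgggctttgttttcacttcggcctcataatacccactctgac
The windows held 1 GC box in Igf2bp3, 6 in Igf2bp2 (the last pair side by side in 1 run of capitals), 1 in Igf1r and 2 in Igf2r. Igf2 held 1 before the start shown and 0 before its other start, and Igf1 held 0. Of all 33469 RefSeq upstream sequences of this length, 30.5% held at least 1. CpG pairs numbered 19 in Igf2bp3, 39 in Igf2bp2, 45 in Igf1r, 23 in Igf2r, 7 in Igf2 (15 before its other start) and 3 in Igf1, against a median of 5 over all of them. The windows of Hmga2 and Lin28b, which did not enter the correlations, are not shown. Each held 0 GC boxes, with 7 CpG pairs in Hmga2 and 2 in Lin28b. These matches describe the letters of the windows and are not evidence of binding.

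In the count table, which is on build rn7, the members lay as follows. Igf2bp1 spans chr10:80908300-80951097 (minus strand, 2105 exon bases), Igf2bp2 chr11:78874402-78974392 (plus, 3629) and Igf2bp3 chr4:78062193-78194865 (minus, 2345). Igf2 spans chr1:197814409-197824517 (minus, 4647), Igf1 chr7:22282908-22356770 (plus, 1926), Igf1r chr1:121550741-121831781 (plus, 4688), Igf2r chr1:47979109-48067501 (plus, 8803) and Hmga2 chr7:55880112-55994784 (minus, 805). Igf2bp1, Igf2bp2 and Igf2bp3 are paralogs, and how the counting treated reads that match more than 1 of them is not given in the sources used here, so their separate values are uncertain to that extent.

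Levels are compared between genes in RPKM, which divides by exon length. In the 24 controls Igf2 had the highest mean, 29.4 ± 18.4 RPKM (SD), and also the widest range, 3.23 to 66.0 RPKM. Its clearance receptor Igf2r followed with 10.6 ± 2.03 RPKM, and since Igf2 was above Igf2r in 18 of the 24 controls the order of this pair changed from animal to animal. The signalling receptor Igf1r had 6.76 ± 1.40 RPKM and was below Igf2r in all 24 controls. Igf2bp2 (4.42 ± 0.814 RPKM), Igf1 (4.03 ± 1.40 RPKM) and Igf2bp3 (3.08 ± 0.975 RPKM) lay close together, Igf2bp2 above Igf1 in 16 of 24 and Igf1 above Igf2bp3 in 17 of 24, so neighbours in this stretch did not differ beyond their spread. Igf2bp1 was the least abundant of the tested genes at 1.29 ± 0.428 RPKM and lay below Igf2bp3 in all 24. Hmga2 had 0.402 ± 0.295 RPKM in controls, at most 31 counts and 0.901 CPM in any animal, and 0 of 71 animals reached 1 CPM. Lin28a, the paralog of Lin28b, reached at most 0.793 CPM in any of the 71 animals.

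Igf2 differed widely between littermates, and the other members differed less. Over the 26 litters with at least 2 animals, the highest CPM in a litter divided by the lowest had a median of 1.99 and a maximum of 21.7 for Igf2, and medians of 1.13 for Igf2r, 1.18 for Igf1r, 1.27 for Igf2bp2, 1.33 for Igf2bp3, 1.37 for Igf1 and 1.51 for Igf2bp1. The maxima of these other members ran from 1.72 for Igf2r to 2.82 for Igf2bp1. The SD among littermates on the log2 CPM scale was 1.19 in batch 1 and 0.866 in batch 2 for Igf2, against 0.205 and 0.143 for Igf2r.

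Over litters, the RNA-binding protein genes and the receptor genes rose and fell together. In the 20 litters of batch 2, litter means of log2 CPM of Igf2bp1 and Igf2bp3 correlated with Pearson's r = 0.935 (permutation test with 100000 resamples, two-sided, adjusted p = 7e-05 over the 21 pairs of members, from the smallest p these resamples can give) and Spearman's rho = 0.955 (adjusted p = 0.000105), and r was 0.900 without the 2 litters farthest from the median. Igf1r and Igf2r had r = 0.927 (adjusted p = 7e-05) and rho = 0.893 (adjusted p = 0.000105), with r = 0.882 without 2 litters. Across these groups, Igf2bp3 had r = 0.824 with Igf2r (adjusted p = 7e-05) and rho = 0.764 (adjusted p = 0.000788), with r = 0.714 without 2 litters. With Igf1r it had r = 0.793 (adjusted p = 0.000315) and rho = 0.609 (adjusted p = 0.0154), with r = 0.651 without 2 litters. Igf2bp2 joined them with r = 0.738 to Igf2bp3 (adjusted p = 0.00105; rho = 0.753, adjusted p = 0.00101; r = 0.716 without 2 litters). All 10 pairs among these 5 genes passed adjusted p of 0.05 in batch 2, and 0 of the 11 pairs with Igf2 or Igf1 did. In the 7 litters of batch 1 r was 0.829 for Igf2bp1 with Igf2bp3 (adjusted p = 0.397 by exact permutation over the 21 pairs), and without 2 litters 0.0445. It was 0.447 for Igf1r with Igf2r (adjusted p = 0.567), and 0 of 21 pairs passed. These values are over all groups of a batch, so exposure and litter both enter them. With group, batch and sex means removed from the 71 animals, r was 0.688 for Igf2bp1 with Igf2bp3, 0.818 for Igf1r with Igf2r and 0.603 for Igf2bp3 with Igf2r, and 0.221 for Igf2bp2 with Igf2bp3. The dams of batch 2 are numbered 1 to 25 with gaps, and in each run of 5 numbers the groups follow in the same order. The study also grouped litters by days of collection, but which litter was in which cohort is not given in the sources used here. The litters of dams 6 to 10 stood high, with Igf2r litter means of 109 to 144 CPM (median 117), against 66.3 to 112 CPM (median 78.3) in dams 1 to 5. After the means of the 5 runs of dam numbers were removed from the litter means, r was 0.922 for Igf2bp1 with Igf2bp3, 0.853 for Igf1r with Igf2r and 0.780 for Igf2bp2 with Igf2bp3, while that of Igf2 with Igf2bp1 went from 0.117 to 0.571. These last values are a description, made after the data were seen.

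**Figure D1:**
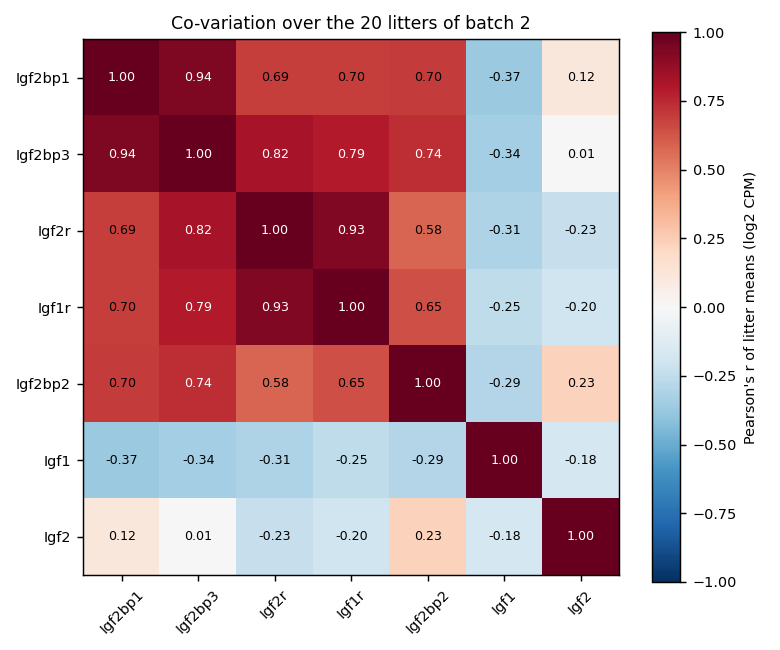
Pearson's r of litter means of log2 CPM between the 7 tested members over the 20 litters of batch 2, each cell giving the r of its row and column gene. The 5 genes Igf2bp1, Igf2bp3, Igf2r, Igf1r and Igf2bp2 form a block of positive values, and Igf1 and Igf2 stand outside it.

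Igf1r, Igf2r and Igf2bp3 also varied with the balance of long and short genes in a library. A long-gene index was computed after these values were seen, as the mean log2 CPM of the 681 tested genes of at least 6000 exon bases (Igf2r among them) minus that of the 3121 tested genes of at most 1500 bases. It ran from 1.68 to 2.62 over the 71 animals. Over the litters of batch 2 it correlated with Igf2r at r = 0.952 (rho = 0.952, permutation test, adjusted p = 3.5e-05 for both over 7 relations; r = 0.930 without 2 litters), with Igf1r at r = 0.921 (rho = 0.917, adjusted p = 3.5e-05 for both; r = 0.887 without 2 litters) and with Igf2bp3 at r = 0.748 (adjusted p = 0.000467) and rho = 0.668 (adjusted p = 0.00418), with r = 0.705 without 2 litters. In the 7 litters of batch 1 r was 0.934 for Igf2r (adjusted p = 0.00833, exact permutation), 0.639 for Igf1r (adjusted p = 0.394) and 0.394 for Igf2bp3 (adjusted p = 0.446). For Igf2 and Igf1 r was -0.367 and -0.0494 in batch 2. The values of Igf2bp1 and Igf2bp2 with the index are not given here. The index is a property of the libraries, and its part in the levels of these genes was not tested beyond the fits with it as a covariate given below.

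Of the members' nearest neighbours, up to 3 genes most like each member over the 71 animals (Pearson's r of log2 CPM with group, batch and sex means removed), the highest r were those of Igf2, given below with the meningeal markers, and then those of the receptors. Igf2r was most like Dchs1 (r = 0.940), Celsr3 (0.929) and Baz1b (0.928), and 393 genes had r of at least 0.8 with it. Igf1r was most like Ncoa2 (0.886), Ncor1 (0.886) and Afdn (0.885), with 178 genes at 0.8 or more. Igf2bp3 was most like Ppp2r3a (0.789), Mllt3 (0.763) and Smarcc1 (0.762), Igf2bp1 like Zfp266 (0.678), Fubp1 (0.676) and Poli (0.676), and Igf2bp2 like Robo1 (0.587) and Zswim5 (0.585), with 0 genes at 0.8 or more for these 3. Igf1 was most like Tmem132d (0.686), Adcy8 (0.666) and Susd4 (0.663), also with 0 genes at 0.8 or more.

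In MARA-AB exposed offspring as a whole, 6 of the 7 tested members had a higher and Igf1 a lower fitted level than in saline controls, but none of the 6 tested for exposure passed FDR < 0.1. Igf2bp3 had a median of 8.72 CPM in the 47 exposed animals (range 4.51 to 21.3) and 6.74 CPM in the 24 controls (range 3.84 to 13.2), a difference of 0.40 on the log2 scale (SE = 0.11). Igf2bp1 had medians of 3.29 CPM (1.55 to 9.87) and 2.48 CPM (1.48 to 4.84), with est. = 0.38, SE = 0.13 and adjusted p = 0.342. The ranges of exposed and control animals overlapped for both genes. Igf1r had medians of 38.3 CPM (22.1 to 74.8) and 30.8 CPM (19.7 to 45.3), with est. = 0.28, SE = 0.09 and adjusted p = 0.304. For the other members est. was 0.31 (SE = 0.22, adjusted p = 0.642) for Igf2, 0.16 (SE = 0.07, adjusted p = 0.389) for Igf2bp2, 0.09 (SE = 0.07, adjusted p = 0.663) for Igf2r and -0.14 (SE = 0.11, adjusted p = 0.666) for Igf1. By edgeR and by DESeq2, 0 of 6 members passed and 3 of 6 had an unadjusted p under 0.05. Of all 12477 genes tested 0.0321% passed, 4 genes, and 1281 had an unadjusted p under 0.05. With the long-gene index as a covariate, 1 member, Igf1r, passed (est. = 0.20, SE = 0.05, adjusted p = 0.0982). The share of all genes that passed in that fit is not given here, so nothing is read from the call.

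In CRMP1+CRMP2 offspring the RNA-binding protein gene Igf2bp1 and both receptor genes were higher than in saline controls, and Igf2bp3 had the highest fitted difference. Igf2bp3 had 5.65 to 21.3 CPM in the 8 animals (median 11.4), against 5.55 to 9.12 CPM in the 12 controls of batch 2 (median 6.12), and 5 of the 8 animals lay above every one of these controls. The controls of batch 1 reached higher, up to 13.2 CPM. The difference of Igf2bp3 from all 24 controls was 0.82 on the log2 scale (SE = 0.17). Igf2bp1 ran from 2.17 to 9.87 CPM (median 3.18) against 1.48 to 4.07 CPM in the batch 2 controls (median 2.40), with 3 of 8 above every batch 2 control, and est. = 0.76 (SE = 0.22, adjusted p = 0.0397). Its higher values were 9.87 CPM in animal 3, 6.10 CPM in animal 4 and 4.83 CPM in animal 6, where the highest batch 1 control had 4.84 CPM. Igf1r ran from 30.7 to 74.8 CPM (median 37.2) against 19.7 to 45.3 CPM (median 30.5). All 8 animals lay above the control median and 2 above every control, and est. was 0.42 (SE = 0.14, adjusted p = 0.0659). Igf2r ran from 80.3 to 156 CPM (median 112) against 63.8 to 127 CPM (median 89.2), with est. = 0.31 (SE = 0.11, adjusted p = 0.0828). Here 2 of 8 animals lay above every batch 2 control and 6 above their median. Igf2 (est. = 0.56, SE = 0.38, adjusted p = 0.359), Igf2bp2 (est. = 0.09, SE = 0.11, adjusted p = 0.646) and Igf1 (est. = -0.13, SE = 0.21, adjusted p = 0.719) did not pass. In all, 3 of the 6 members tested for exposure passed FDR < 0.1, all higher, where 11.4% of the 12691 genes tested passed and 4.83% passed as higher. As the list was drawn up with this contrast known, nothing is read from that share, and the members' adjusted p-values only describe the fit.

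**Figure D2:**
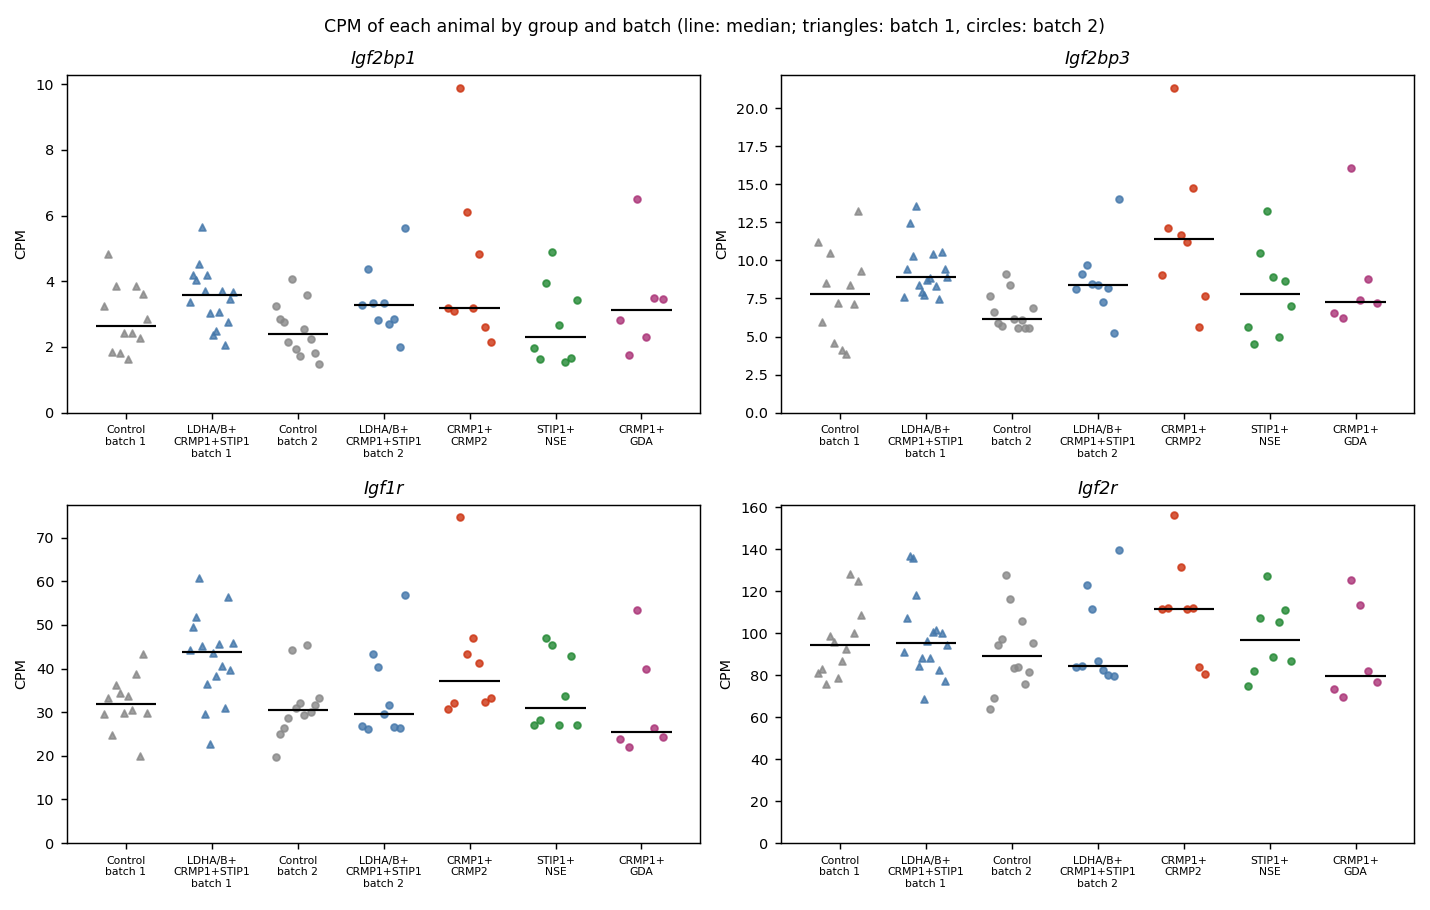
CPM of Igf2bp1, Igf2bp3, Igf1r and Igf2r in each of the 71 animals by group and batch, with group medians as lines, triangles for batch 1 and circles for batch 2. The highest point in each panel is animal 3 of CRMP1+CRMP2, at 9.87, 21.3, 74.8 and 156 CPM.

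The same animal, number 3 of CRMP1+CRMP2, had the highest value of all 71 for each of these 4 genes, and animal 4 is its littermate. Without their litter, 9_6, 0 of 6 members passed, with est. = 0.32 (SE = 0.21, adjusted p = 0.635) for Igf2bp1, 0.65 (SE = 0.19) for Igf2bp3, 0.21 (SE = 0.13, adjusted p = 0.612) for Igf1r and 0.19 (SE = 0.12, adjusted p = 0.593) for Igf2r. Over all genes 1445 passed with this litter and 41 without it. Without control litter 9_5 or IgG2, or exposed litter 9_11, the calls of Igf1r and Igf2r were lost and that of Igf2bp1 kept, and without control litter IgG1 or 9_15 only that of Igf2r was lost. With the litter as a random effect 0 of 6 passed, and est. stayed between 0.33 (Igf2r, adjusted p = 0.201) and 0.78 (Igf2bp3), with 0.60 for Igf2bp1 (adjusted p = 0.268) and 0.42 for Igf1r (adjusted p = 0.239). With batch 2 alone 0 of 6 passed, with est. = 0.76 (SE = 0.26, adjusted p = 0.153) for Igf2bp1, 0.38 (SE = 0.16, adjusted p = 0.204) for Igf1r and 0.31 (SE = 0.13, adjusted p = 0.208) for Igf2r, beside 0.83 (SE = 0.18) for Igf2bp3.

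The runs of 5 dam numbers, used as a covariate in batch 2 alone after the data were seen, moved these calls the other way. In the 3 runs that hold a litter of both groups, the CRMP1+CRMP2 litter had a higher mean than the control litter for each of these genes. For Igf2r the means were 112 against 66.3 CPM, 144 against 109 CPM and 112 against 83.5 CPM. For Igf1r they were 31.4 against 22.4, 59.1 against 32.6 and 44.1 against 30.8 CPM, and for Igf2bp1 3.13 against 3.06, 7.99 against 2.73 and 4.01 against 2.12 CPM. With the dam number runs 4 of 6 members passed, Igf2r (est. = 0.53, SE = 0.09, adjusted p = 0.000963), Igf1r (0.62, SE = 0.15, adjusted p = 0.00826), Igf2bp1 (0.85, SE = 0.28, adjusted p = 0.0370) and Igf2bp2 (0.36, SE = 0.15, adjusted p = 0.0943), where 30.6% of 12605 genes passed. With the litter as a random effect as well, 3 of 6 passed, Igf2r (adjusted p = 0.00364), Igf1r (adjusted p = 0.0206) and Igf2bp1 (adjusted p = 0.0578), and 23.5% of genes. Without litter 9_6, Igf2r (0.59, SE = 0.11, adjusted p = 0.00213) and Igf1r (0.51, SE = 0.15, adjusted p = 0.0291) passed and Igf2bp1 did not (0.47, SE = 0.31, adjusted p = 0.310), and with the litter as a random effect besides, the same 2 genes passed. For all exposed animals of batch 2 with the dam number runs, 4 of 6 passed, Igf1r (0.41, SE = 0.10, adjusted p = 0.0220), Igf2r (0.30, SE = 0.08, adjusted p = 0.0268), Igf2bp2 (0.28, SE = 0.09, adjusted p = 0.0594) and Igf2bp1 (0.56, SE = 0.20, adjusted p = 0.0802), beside 12.3% of 12384 genes. With the litter as a random effect these were 2, Igf1r (adjusted p = 0.0780) and Igf2r (adjusted p = 0.0829), beside 2.33%. In each of the 3 remaining patterns 0 of 6 passed in either fit. By edgeR 4 members had an unadjusted p under 0.05 in LDHA/B+CRMP1+STIP1, beside 1902 of 12570 genes. In STIP1+NSE 2 members had one, beside 1437 of 12562 genes, and in CRMP1+GDA 0 did, beside 1274 of 12538 genes. Genes called in these edgeR fits numbered 0, 1 and 5. What the dam number runs share was not tested. In CRMP1+CRMP2 and in all exposed animals the rates of the members rose with those of all genes, so nothing is read from them about the members.

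Library and tissue measures differed in this pattern too, and tissue markers also varied among the other groups of batch 2. The long-gene index had a median of 2.28 in CRMP1+CRMP2 (1.94 to 2.57) and 2.12 in the batch 2 controls (1.68 to 2.37), and with it as a covariate est. fell to 0.44 for Igf2bp1 (adjusted p = 0.268), 0.17 for Igf1r (adjusted p = 0.337), 0.10 for Igf2r (adjusted p = 0.376) and 0.63 for Igf2bp3 (SE = 0.18), and 0 of 6 members passed. Choroid plexus markers passed as higher in 10 of 10 and pineal gland markers in 6 of 6. Only 3 of the 6 pineal markers passed the filter of at least 1 CPM in at least 8 animals. The others entered under the filter for single patterns, over 1 CPM in at least 2 animals. Animals 2 and 6, with the high pineal sums given below, can both bring such a marker into the test and make it higher. The pineal count is therefore not read as a difference of the whole group. The summed CPM of the 10 choroid plexus markers ran from 246 to 3633 in CRMP1+CRMP2 and from 175 to 3085 in batch 2 controls. Its median was 1251 CPM in CRMP1+CRMP2, 1150 in STIP1+NSE, 804 in CRMP1+GDA and 1426 in LDHA/B+CRMP1+STIP1 of batch 2. In controls the median was 792 CPM in batch 2 and 43.8 CPM in batch 1, and the choroid plexus call above was against both. The summed CPM of the 6 pineal markers ran from 14.7 to 271 in CRMP1+CRMP2 against 11.9 to 23.4 in batch 2 controls, with Crx at a median of 0 in both. It reached 108 CPM in STIP1+NSE, 66.1 CPM in CRMP1+GDA and 26.1 CPM in LDHA/B+CRMP1+STIP1 of batch 2. Within CRMP1+CRMP2, animals 2 and 6 had the high pineal sums, 271 and 94.8 CPM. Animal 3, highest for all 4 members, had 17.4 CPM of pineal and 582 CPM of choroid plexus markers. Its litter, 9_6, had a mean long-gene index of 2.55, the highest of the batch 2 litters. Without animals 2 and 6, Igf2bp1 (est. = 0.84, SE = 0.24, adjusted p = 0.0902) and Igf1r (0.51, SE = 0.15, adjusted p = 0.0928) passed and Igf2r did not (0.35, SE = 0.12, adjusted p = 0.136), with Igf2bp3 at 0.79 (SE = 0.19). With the choroid plexus score as a covariate Igf2bp1 (0.78, adjusted p = 0.0542), Igf1r (0.54, adjusted p = 0.0425) and Igf2r (0.35, adjusted p = 0.0807) passed, and Igf2bp3 was at 0.74. The shares of all genes that passed without animals 2 and 6 or with this score are not given here, so nothing is read from these calls.

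For the other patterns 0 of 6 members passed in each comparison with the 24 controls, by edgeR and by DESeq2. For STIP1+NSE 0 of 6 had an unadjusted p under 0.05, and 0.0474% of 12660 genes passed. Igf2bp3 ran from 4.51 to 13.3 CPM (median 7.81, est. = 0.34, SE = 0.19) and Igf1r from 26.95 to 47.1 CPM (median 30.9, est. = 0.18, SE = 0.13, adjusted p = 1.0). For CRMP1+GDA 0 of 6 had an unadjusted p under 0.05, and 0% of 12641 genes passed by either tool (462 by edgeR with an unadjusted p under 0.05). Igf2bp3 ran from 6.23 to 16.1 CPM (median 7.28, est. = 0.52, SE = 0.19) and Igf2bp1 from 1.76 to 6.50 CPM (median 3.14, est. = 0.48, SE = 0.24, adjusted p = 0.999). The high value of both genes came from 1 animal, number 3, while the other 5 lay within the range of the batch 2 controls. For LDHA/B+CRMP1+STIP1 3 of 6 had an unadjusted p under 0.05, and 0.0157% of 12700 genes passed. Igf2bp1 had est. = 0.31 (SE = 0.12, adjusted p = 0.550), Igf2bp2 0.17 (SE = 0.07, adjusted p = 0.572), Igf2bp3 0.29 (SE = 0.10), Igf1r 0.26 (SE = 0.10, adjusted p = 0.496) and Igf1 -0.21 (SE = 0.13, adjusted p = 0.768). With the long-gene index as a covariate, 1 member passed here too, Igf1r (est. = 0.24, SE = 0.06, adjusted p = 0.0579), again without the share of all genes beside it. These patterns share their controls, so the values are set side by side and not correlated. A test of any difference among the 4 patterns within batch 2 passed for 0 of the 7 members (adjusted p from 0.662) and 0% of 12384 genes, with 0 members and 885 genes at an unadjusted p under 0.05, where DESeq2 called 0 members and 1 gene. With the dam number runs as a covariate Igf2r passed (adjusted p = 0.0597) and the other 6 did not (Igf1r, adjusted p = 0.103), beside 13.5% of genes, and with the litter as a random effect too 0 of 7 passed (Igf2r, adjusted p = 0.143), beside 5.82%. So a difference among the patterns was called for Igf2r in 1 of these fits and for no other member.

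**Figure D3:**
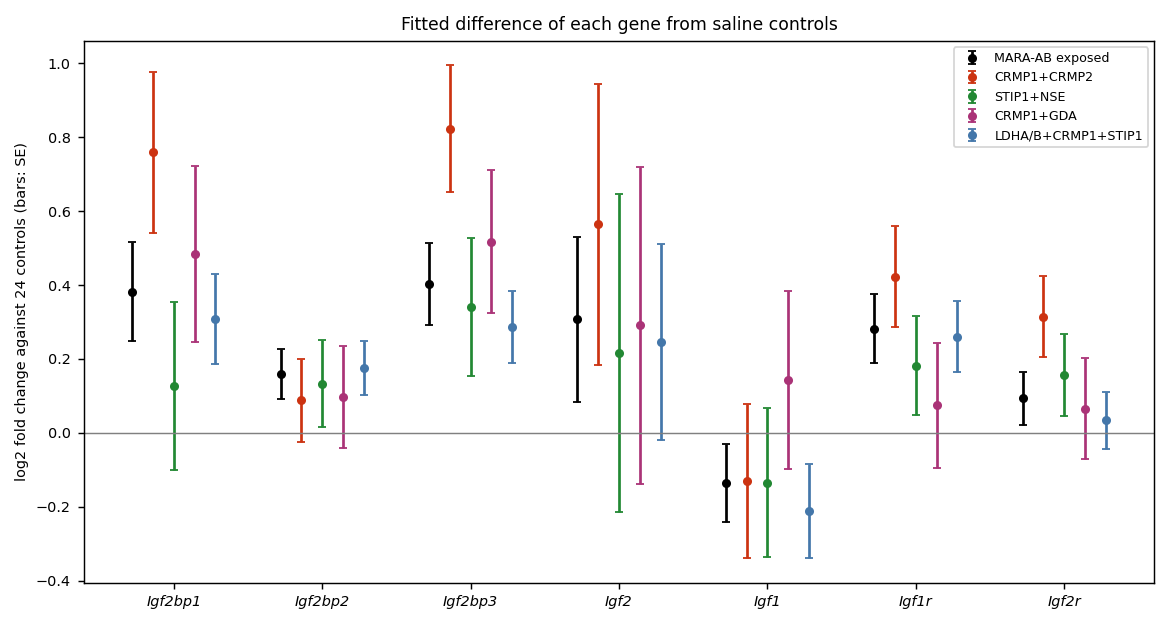
Fitted log2 fold change of each tested member against the 24 saline controls, for all exposed animals and for each pattern, with the SE as bars. CRMP1+CRMP2 has the highest value for Igf2bp1 (0.76), Igf2bp3 (0.82), Igf1r (0.42) and Igf2r (0.31), and Igf1 lies below 0 in 4 of the 5 comparisons, none of which passed for it.

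The LDHA/B+CRMP1+STIP1 pattern was sequenced in both batches, which allows its response to be set out in each. Igf1r ran from 22.6 to 60.7 CPM in the 16 exposed animals of batch 1 (median 43.9) against 20.1 to 43.3 CPM in the 12 controls (median 31.9), and 9 of 16 lay above every control. In batch 2 it ran from 26.2 to 56.9 CPM (median 29.5) against 19.7 to 45.3 CPM (median 30.5). Its est. was 0.41 (SE = 0.13, adjusted p = 0.638) in batch 1 and 0.11 (SE = 0.15, adjusted p = 0.983) in batch 2. With the long-gene index as a covariate the batch 1 value of Igf1r passed (0.34, SE = 0.07, adjusted p = 0.0760), the 1 member that did. Here too the share of all genes is not given, and nothing is read from the call. Igf2bp3 had est. = 0.26 (SE = 0.14) in batch 1 and 0.39 (SE = 0.16) in batch 2. In batch 1, 13 of 16 animals lay above the control median of 7.80 CPM, and in batch 2, 8 of 9 lay above that of 6.12 CPM. Within batch 1, 0 of 6 members and 0% of 12323 genes passed, with 1 member and 713 genes at an unadjusted p under 0.05, and within batch 2, 0 of 6 and 0% of 12323, with 1 member and 687 genes. The difference of the response between batches passed for 0 of 7 members and 0% of 12323 genes (0 members and 356 genes at an unadjusted p under 0.05). DESeq2 called 0 members in these 3 comparisons, and 7, 3 and 2 genes. The difference for Igf1r was -0.30 with a 95% interval from -0.68 to 0.09.

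Igf2 varied with the meningeal markers of the slice, and no exposure contrast of it passed. It ran from 15.02 to 205 CPM in the controls of batch 1 (median 112), from 28.5 to 307 CPM in those of batch 2 (median 158), from 5.20 to 193 CPM in LDHA/B+CRMP1+STIP1 of batch 1 (median 106) and from 47.0 to 288 CPM in those of batch 2 (median 193). It ran from 65.3 to 405 CPM in CRMP1+CRMP2 (median 211), from 40.3 to 396 CPM in STIP1+NSE (median 227) and from 167 to 398 CPM in CRMP1+GDA (median 211). All groups overlapped. In a litter of LDHA/B+CRMP1+STIP1 in batch 1, littermates spanned 5.20 to 113 CPM.

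**Figure D4:**
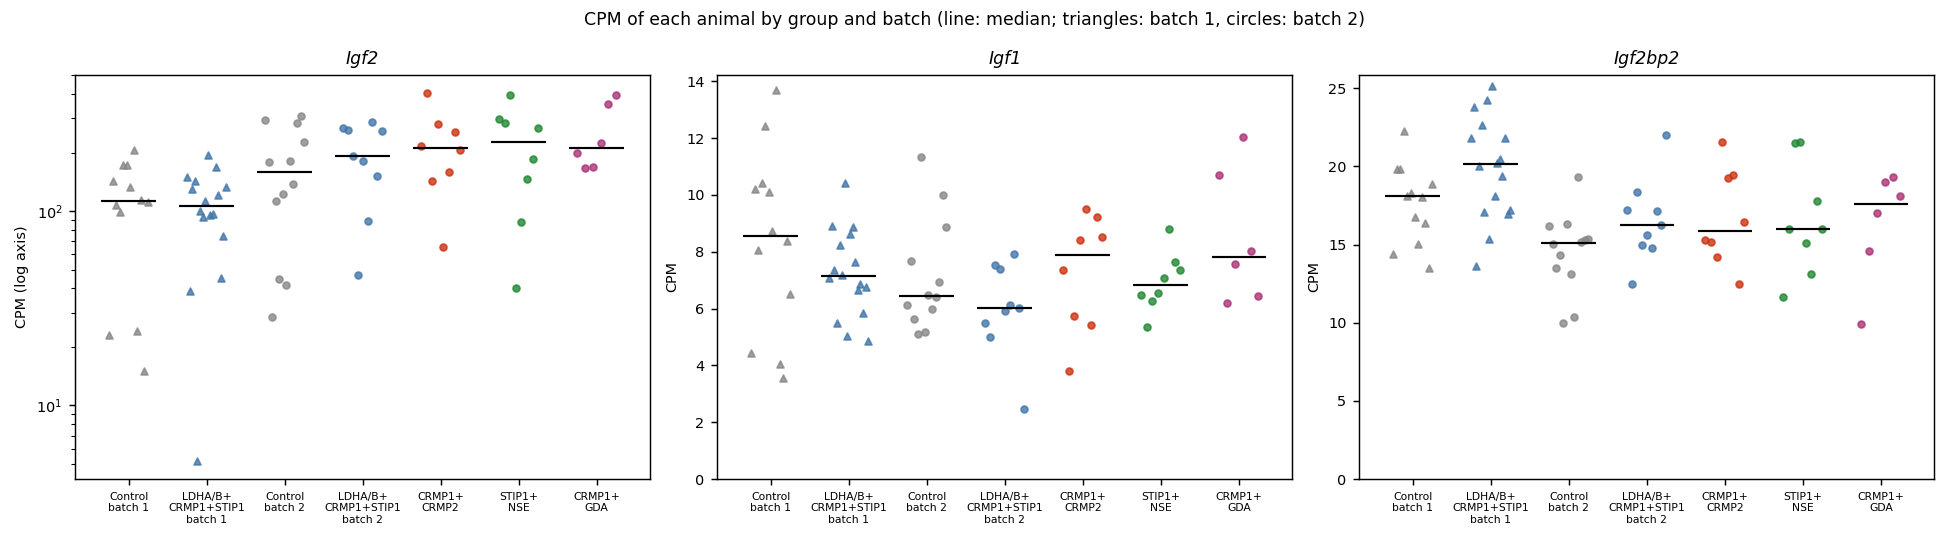
CPM of Igf2 (log axis), Igf1 and Igf2bp2 in each of the 71 animals by group and batch, with group medians as lines, triangles for batch 1 and circles for batch 2. Igf2 spans 5.20 to 405 CPM, and groups overlap in all 3 panels.

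The 11 meninges and fibroblast markers, collagen and other matrix genes with meningeal transporters and transcription factors, had a summed CPM of 16.4 to 1474 over the 71 animals, and Col1a1 alone ran from 2.56 to 435 CPM. Litter means of Igf2 correlated with the mean log2 CPM of this list at r = 0.976 in the 20 litters of batch 2 (adjusted p = 0.000257 over 77 relations of members with lists, permutation test; rho = 0.968, adjusted p = 0.000385; r = 0.966 without 2 litters) and at r = 0.987 in the 7 litters of batch 1 (adjusted p = 0.0458, exact permutation). With group, batch and sex means removed from the 71 animals r was 0.976. Its most alike genes were Col1a2 (r = 0.977) and Col3a1 (0.971), fibrillar collagens, and Colec12 (0.964), a scavenger receptor, and 128 genes had r of at least 0.8. In batch 2 Igf2 also correlated with the endothelium and pericyte list (r = 0.952, adjusted p = 0.000257), the microglia list (0.832, adjusted p = 0.000257) and the choroid plexus list (0.645, adjusted p = 0.0385), with rho of 0.895, 0.768 and 0.675 and r of 0.925, 0.770 and 0.613 without 2 litters. In batch 1 r was 0.811, 0.723 and 0.482, and none of these 3 passed. With the dam number means removed in batch 2, r was 0.956 for the meningeal list, 0.886, 0.578 and 0.319. In a bulk slice, fewer cells of a type and less RNA per cell cannot be told apart.

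**Figure D5:**
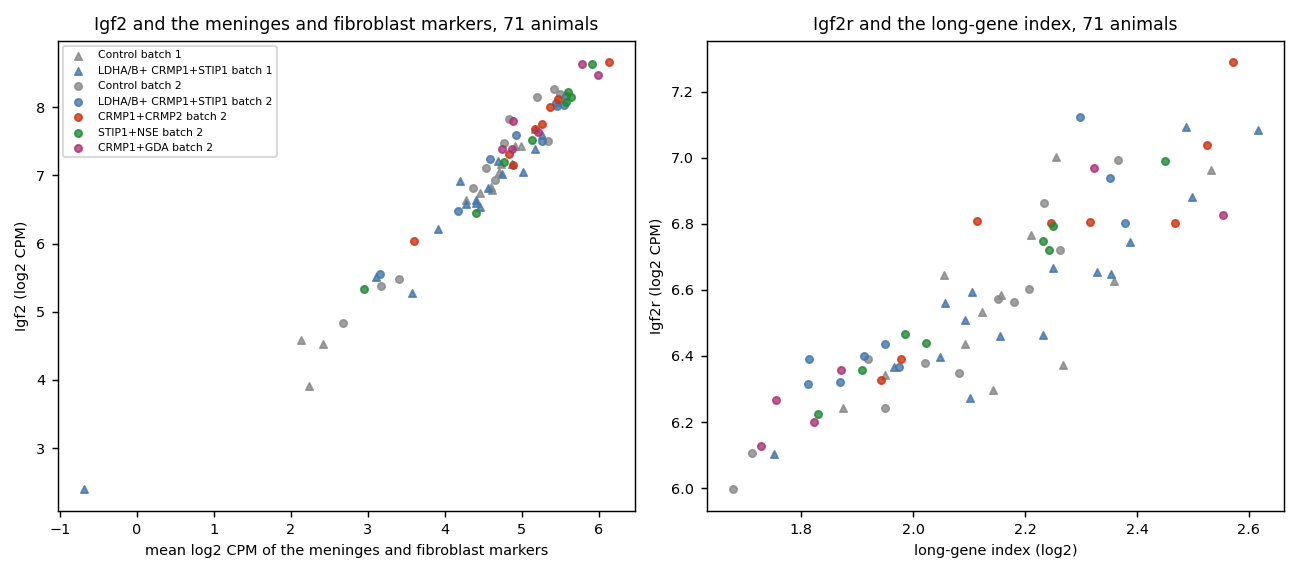
Left, log2 CPM of Igf2 against the mean log2 CPM of the 11 meninges and fibroblast markers, and right, log2 CPM of Igf2r against the long-gene index, each point 1 of the 71 animals, coloured by group, with triangles for batch 1 and circles for batch 2. Igf2 lies along 1 line through animals of every group and both batches, and Igf2r rises with the index in both batches.

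Of the 77 relations between 7 members and 11 marker lists in batch 2, 8 passed an adjusted p of 0.05, the 4 of Igf2 and 4 of the RNA-binding protein genes. Igf2bp3 had r = 0.605 with the young neuron list (adjusted p = 0.0421; 0.599 without 2 litters) and 0.620 with the forebrain list (adjusted p = 0.0400; 0.453 without 2 litters). Igf2bp1 had r = 0.616 with young neurons (adjusted p = 0.0421; 0.565 without 2 litters) and Igf2bp2 0.649 with forebrain (adjusted p = 0.0381; 0.646 without 2 litters). By rho the young neuron relations passed (0.618 and 0.660, adjusted p = 0.0484 and 0.0279) and the forebrain relations did not (0.535 and 0.579, adjusted p = 0.101 and 0.0841). In batch 1 r for these was 0.519, 0.545, 0.0307 and 0.306, and none passed. Over the 71 animals with group, batch and sex means removed r was 0.623, 0.595, 0.379 and 0.0502, so the relation of Igf2bp2 with the forebrain list was not seen among animals of the same group. Igf1, Igf1r and Igf2r passed by r with 0 of the 11 lists in either batch.

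Between the batches, which were processed and sequenced separately, Igf2bp2 was lower in batch 2 in controls and exposed animals and Igf2 higher in exposed animals. Of all genes, 41.6% passed between the controls of batch 2 and batch 1 (12089 tested) and 41.3% between the LDHA/B+CRMP1+STIP1 animals of the batches (12033 tested). Of the 7 members 1 and 2 passed, too few genes for a share. Igf2bp2 ran from 13.5 to 22.3 CPM in the batch 1 controls (median 18.1) and from 10.01 to 19.3 CPM in the batch 2 controls (median 15.1), and fell by 0.27 on the log2 scale in batch 2 (SE = 0.09, adjusted p = 0.0231). In LDHA/B+CRMP1+STIP1 animals it ran from 13.6 to 25.1 CPM (median 20.1) and from 12.5 to 22.005 CPM (median 16.2), and fell by 0.25 (SE = 0.09, adjusted p = 0.0433). The batches overlapped in both groups. With the litter as a random effect these values were -0.27 (adjusted p = 0.173) and -0.24 (adjusted p = 0.149). Igf2 rose by 0.87 in batch 2 in LDHA/B+CRMP1+STIP1 animals (SE = 0.36, adjusted p = 0.0650), and in controls est. was 0.51 (SE = 0.43, adjusted p = 0.386). With the meningeal score as a covariate these became 0.27 (SE = 0.09, adjusted p = 0.0266) and 0.17 (SE = 0.08, adjusted p = 0.0789), so that 2 members passed in controls. In LDHA/B+CRMP1+STIP1 animals 3 of 11 meninges and fibroblast markers, 10 of 10 choroid plexus markers and 7 of 7 blood markers passed as higher in batch 2. The summed choroid plexus markers ran from 27.6 to 629 CPM in batch 1 and from 420 to 2352 CPM in batch 2, and with that score as a covariate Igf2 was at -0.047 (SE = 0.67, adjusted p = 0.988). With the choroid plexus score Igf2bp2 in controls was at -0.63 (SE = 0.19, adjusted p = 0.0217). No batch 1 control had a score (mean log2 CPM) above 1.61, and no batch 2 control had one below 1.74. Score and batch therefore cannot be told apart in controls, and nothing is read from the -0.63. In LDHA/B+CRMP1+STIP1 animals the scores of the batches overlapped only between 2.88 and 3.71, so the Igf2 value of -0.047 is not read either. Leaving out 1 litter changed the calls between the batches. Igf2 was lost without litter 9_4, 9_19, 9_24 or RNA2 (est. from 0.71 to 0.82), and Igf2bp2 in the same animals without 9_4, 9_14 or RNA1 (est. from -0.22 to -0.20). Igf1r, at -0.32 (SE = 0.15, adjusted p = 0.103) in these animals, passed by DESeq2 (adjusted p = 0.0671) and without litter 9_9, 9_24 or FcRn4 (est. from -0.44 to -0.42), and Igf1 passed without 9_9 (-0.37). In controls Igf2bp3 also passed without litter IgG2 (-0.49), and Igf1 without RNA4 (-0.43). With all litters the other members had adjusted p from 0.103 upward in both comparisons.

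Around the members, 88 genes of the IGF and IGF2BP pathways were taken from 8 lists (IGF binding proteins, their proteases and inhibitors, insulin and its receptors, IGF receptor signalling, LIN28 and let-7 processing, IGF2BP partner proteins, IGF2BP target transcripts and imprinted growth genes). In all exposed animals against controls 0 of the 71 tested passed by edgeR (8 with an unadjusted p under 0.05), with a median log2 fold change of 0.03, against 0.00287 over all genes. In CRMP1+CRMP2 13 of 71 passed, 7 higher and 6 lower, 18.3% against 11.4% of all genes, with a median of 0.05 against 0.00726 over all genes. The 5 with the smallest p were Ndn, an imprinted neuronal growth suppressor (est. = -0.32, SE = 0.07, adjusted p = 0.00816), Plagl1, an imprinted zinc finger that regulates Igf2 (0.54, SE = 0.13, adjusted p = 0.0145), Insr, the insulin receptor (0.34, SE = 0.09, adjusted p = 0.0320), Shc1, an adaptor of the receptor kinases (0.33, SE = 0.10, adjusted p = 0.0421), and Gap43, a growth cone protein (-0.18, SE = 0.05, adjusted p = 0.0452). In IGF receptor signalling 2 of 27 passed, both higher, and in imprinted growth genes 3 of 10, 1 higher and 2 lower. As given above, most calls over all genes in CRMP1+CRMP2 were lost without litter 9_6. Values of these pathway genes without that litter are not given here. The lists were chosen with earlier results of these data known, so nothing is read from these shares. In each of the other 3 patterns 0 of 72 passed by edgeR, with 2, 2 and 7 at an unadjusted p under 0.05 in STIP1+NSE, in CRMP1+GDA and in LDHA/B+CRMP1+STIP1.

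Between batches, 8 of 10 imprinted growth genes passed as higher in batch 2 in controls (median 0.52, against 0.0016 over all genes), where 21.4% of all genes passed as higher, and in LDHA/B+CRMP1+STIP1 8 of 10 did (median 0.48), where 21% of all genes did. Plagl1 rose by 1.26 (SE = 0.11, adjusted p = 7.77e-09) and 1.13 (SE = 0.11, adjusted p = 2.74e-08), and Cdkn1c, an imprinted inhibitor of cell division, by 1.75 (SE = 0.23, adjusted p = 4.04e-06) and 1.67 (SE = 0.17, adjusted p = 1.76e-07). Of 27 IGF receptor signalling genes 11 passed as lower and 3 as higher in controls, and 15 as lower and 3 as higher in LDHA/B+CRMP1+STIP1, where 20.2% of all genes passed as lower in both comparisons. The lists were not tested as sets. Among them were Foxo1, a transcription factor that AKT switches off, which fell by 0.97 (SE = 0.11, adjusted p = 2.83e-07) and 0.93 (SE = 0.13, adjusted p = 4.62e-06), and Pik3r1, a regulatory subunit of PI3 kinase, which fell by 0.43 in controls (SE = 0.06, adjusted p = 1.22e-05). Mki67, a proliferation marker and IGF2BP target, fell by 0.62 in controls (SE = 0.08, adjusted p = 6.8e-07), Actb fell by 0.29 (SE = 0.04, adjusted p = 1.4e-05) and Igfbp3, a carrier of IGFs, rose by 0.59 (SE = 0.09, adjusted p = 1.89e-05) in LDHA/B+CRMP1+STIP1. Over all 88 genes 38 of 71 (53.5%) and 45 of 71 (63.4%) passed, beside 41.6% and 41.3% of all genes. Choroid plexus markers were higher in batch 2 in 10 of 10 in both comparisons. The summed CPM of the 8 forebrain markers ran from 1302 to 1956 in the batch 1 controls and from 919 to 1364 in the batch 2 controls, and 5 of 8 dividing cell markers fell in batch 2 in controls. Their part in these differences was not tested.

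Females and males overlapped in the members, and no sex difference passed. Igf2bp3 ran from 3.84 to 14.7 CPM in the 36 females (median 8.12) and from 4.57 to 21.3 CPM in the 35 males (median 8.41), and Igf2 from 15.02 to 405 CPM (median 138) and from 5.20 to 396 CPM (median 172). Differences ran from -0.14 (Igf2) to 0.03 (Igf2r) on the log2 scale, with 95% intervals of -0.57 to 0.29 and -0.10 to 0.17. By edgeR and by DESeq2 0 of 7 passed and 0 had an unadjusted p under 0.05, where 0.0641% of 12477 genes passed.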

How the data were processed

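RNA-seq counts of 71 PND2 brain slices were used. The authors aligned paired-end reads to the rat build rn7 with STAR 2.5.4b and counted them per gene with featureCounts. The deposited table holds these raw counts for 17494 genes, and each gene's exon length in bases. Strand and multi-mapping options are not given in the sources used here. Among deposited counts of 1 to 9, 74.5% were even, as would be seen if both mates of a pair were counted, so counts may exceed the fragments sequenced, and halved counts were tried. Exposure, litter and sex came from the labels and batch from the title series. The members and gene lists were chosen with earlier results of these data known.

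Fits used R 4.3.3 and edgeR 4.0.16 (TMM, robust quasi-likelihood test, Benjamini-Hochberg adjustment over all genes tested, FDR < 0.1), with the first surrogate variable (sva 3.50.0) in exposure contrasts, and sex in batch contrasts. Genes needed at least 1 CPM in at least 8 animals, or over 1 CPM in at least 2 for single patterns. An adjusted p is edgeR's where no other test is named. CPM and RPKM use TMM-scaled library sizes, and log2 CPM a prior count of 2. Relations used litter means, 2-sided permutation tests (100000 resamples, exact for 7 litters) and no pooling of batches, since marker lists differ between them. Alternatives were DESeq2 1.42.0, other scalings and filters, litter models (limma 3.58.1), batch covariates or batch 2 alone, principal components, and litters left out in turn. Fits with a marker score or the long-gene index as covariate, without CRMP1+CRMP2 animals 2 and 6, or in batch 2 with runs of 5 dam numbers as covariate, were added after seeing the data. The named genes are the members, the 3 genes most like each tested member, up to 5 pathway genes with the smallest p among those passing in a comparison, and the leading marker of a list that moves with a member, and 1 gene that this rule names is not reported here. Steps were tested on simulated data. Libraries held 24880182 to 36234952 counts, and Igf2bp1, with 39 to 255 counts an animal, is the tested member with the fewest.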

Additional observations from a re-analysis of the deposited data

Results flagged for a closer look

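In 28 sets of animals (7 members in 4 sets of 6 to 9 animals), 4 had a highest animal set apart from the others by Dixon's test at the 95% level, where chance gives about 1 in 20. Animal 3 of CRMP1+CRMP2 had 74.8 CPM of Igf1r, with the next animal at 47.1 CPM. Animal 3 of CRMP1+GDA had 6.50 CPM of Igf2bp1, with the next at 3.49 CPM, and 16.1 CPM of Igf2bp3, with the next at 8.75 CPM. Animal 9 of LDHA/B+CRMP1+STIP1 in batch 2 had 14.02 CPM of Igf2bp3, with the next at 9.68 CPM. No set stood apart at its lowest animal.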

How the results depend on the processing

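In CRMP1+CRMP2 against controls 3 of 6 members passed. The count was 0 with the litter as a random effect, counts summed per litter, batch and sex as covariates, batch 2 alone or the long-gene index as a covariate, and 0 to 3 with 1 litter left out. With the runs of 5 dam numbers in batch 2 it was 4, and 3 with the litter as a random effect too (2 in both without litter 9_6). Litters 9_16 and 9_25, without a litter of the other group in their runs, do not inform that contrast. In all exposed animals, where 0 passed, the fits with dam number runs gave 4 and 2, and among the 4 patterns 1 and 0. Between the controls of the batches 1 member passed, 0 with the litter as a random effect or counts summed per litter, 2 with the meningeal score as a covariate, and 1 to 2 with 1 litter left out. Between the LDHA/B+CRMP1+STIP1 animals of the batches 2 passed, 0 with the litter as a random effect or with the choroid plexus score, 1 with summed counts or the long-gene index, and 0 to 4 with 1 litter left out. In that comparison the score left Igf2 at -0.047 (SE = 0.67), and Igf2r, not called at -0.02, reached 0.18 (SE = 0.05, adjusted p = 0.00776) with the long-gene index. With this index 1 member also passed in all exposed animals, in LDHA/B+CRMP1+STIP1 and in that pattern within batch 1. The shares of all genes passing with the index are not given here, so nothing is read from these calls. In the comparisons not named here 0 members passed under every alternative run. The cause of these changes was not tested, except that summing per litter leaves fewer samples. No paired analysis was possible because the labels give no replicate numbers that pair animals across groups. The dam numbers mark litters, and the fits above use them in runs of 5. Igf2bp1, near 3 CPM, is the member most limited by depth.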
